A study of Mus musculus with 6 samples.

Results

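The 33 genes described here drive DNA replication and cell division. They were chosen by name: 13 belong to S phase, in which the genome is copied, and 20 to mitosis and the preparation for it. All 33 were found among the 21829 genes of the deposited table. The tissue was the epididymal fat pad, a white visceral fat depot. It was taken at 20 weeks of age from male mice of strain C57BL/6J that ate a normal diet. RNA was compared between 3 libraries labelled ZFP251 KO, from mice meant to lack the zinc finger protein ZFP251, and 3 libraries of wild-type (WT) littermates. The study asks what ZFP251 does in this tissue, and the labels give neither the allele nor a separate mouse for each library, so p-values measure only the spread between these libraries. Values were read as FPKM, fragments per kilobase of transcript scaled to the fragments of the library. The RNA of the targeted gene was higher under the KO label. Zfp251 averaged 3.41 ± 0.408 FPKM in WT and 6.27 ± 0.359 FPKM under the KO label (both SD, n = 3). The exact permutation test, two-sided, gave p = 0.1, the smallest that 3 against 3 allows. With the allele unknown, an RNA level cannot show whether the protein was lost or whether the labels are right. Directions are therefore given by label, and per-library values run in the order of replicates 1 to 3.

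Before S phase, the MCM proteins are loaded on DNA as a ring of 6 different subunits (Mcm2 to Mcm7) that later unwinds the double helix, and Cdc6 helps to load it. Ribonucleotide reductase and thymidylate synthase then supply DNA building blocks, and PCNA clamps the polymerases to their template. In mitosis, the kinase CDK1 with A and B cyclins condenses the chromosomes and starts spindle assembly, and the APC/C with its activator CDC20 ends it. S phase genes are known targets of E2F transcription factors. Many mitotic genes are known for a CHR element and CCAAT boxes, bound by the DREAM and B-MYB complexes and by NF-Y. Mature fat cells do not divide, and the dividing cells of adult fat are mainly progenitors, macrophages and endothelial cells.

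Promoter sequences were searched for the elements named above, as a description of both gene groups with no test between them. RefSeq promoter sequences (build GRCm38.p6, the assembly of mm10) were matched by symbol for 26 of the 33 members, 11 of S phase and 15 mitotic. Aurkb, Ccna2, Ccne2, Kif20a, Mcm4, Stmn1 and Tpx2 were not matched. In the 250 bases before the start, both strands were searched for TTTCCCGC, TTTCGCGC, TTTGCCGC and TTTGGCGC as E2F elements, for TTTGAA as the CHR element, and for CCAAT. Members were counted by gene, with a match in any of its promoters, and the background by promoter, so these shares are not strictly alike. An E2F match was present in 4 of 11 S phase members (Cdc6, Mcm5, Mcm6 and Mcm7) and in 1 of 15 mitotic members (Cdk1), against 1.86% of all 32851 promoters. Mcm7 also had a promoter without an E2F match. A CHR match was present in 1 of 11 S phase members (Mcm2) and in 6 of 15 mitotic members (Ccnb2, Cdc20, Cdk1, Kif11, Mki67 and Top2a), against 16.0% of all promoters. With the 50 bases after the start included, 11 of 15 mitotic and still 1 of 11 S phase members held a CHR match, against 17.9% of all promoters. CCAAT was present in 8 of 11 S phase and 14 of 15 mitotic members, against 33.8% of all promoters. Most S phase promoters, Rrm2 among them, held no E2F match, and most mitotic ones no CHR match in the 250 bases. A match describes letters only, not a site in use.

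The 5 promoters printed are examples, Mcm6 and Rrm2 of S phase and Cdk1, Cdc20 and Top2a of mitosis, and do not stand for all members. Each of the mitotic ones holds a CHR match, which 6 of 15 mitotic promoters did. Mcm6 is 1 of the 4 S phase members with an E2F match. Mcm6 (chr1:128359706-128359955, minus strand) and Cdk1 (chr10:69352913-69353162, minus strand) are given over 250 bases. Rrm2 (chr12:24708154-24708253, plus strand), Cdc20 (chr4:118437344-118437443, minus strand) and Top2a (chr11:99024190-99024289, minus strand) are given over the 100 bases next to the start. Each reads 5′ to 3′ on the strand of its gene and ends at the base before the start, and capitals mark every match to the searched elements. In Mcm6 the capitals hold E2F matches that begin 110, 106 and 47 bases before the start, the first 2 overlapping, and CCAAT on the opposite strand. In Cdk1 they hold an E2F match 131 bases and CHR matches 71 and 15 bases before the start.
Mcm6: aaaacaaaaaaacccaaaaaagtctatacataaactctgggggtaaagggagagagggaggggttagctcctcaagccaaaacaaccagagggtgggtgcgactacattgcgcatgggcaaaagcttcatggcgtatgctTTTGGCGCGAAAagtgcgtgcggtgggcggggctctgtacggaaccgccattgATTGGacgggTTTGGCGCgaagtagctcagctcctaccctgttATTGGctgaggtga
Rrm2: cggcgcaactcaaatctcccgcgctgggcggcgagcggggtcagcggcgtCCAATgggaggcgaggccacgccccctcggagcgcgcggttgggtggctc
Cdk1: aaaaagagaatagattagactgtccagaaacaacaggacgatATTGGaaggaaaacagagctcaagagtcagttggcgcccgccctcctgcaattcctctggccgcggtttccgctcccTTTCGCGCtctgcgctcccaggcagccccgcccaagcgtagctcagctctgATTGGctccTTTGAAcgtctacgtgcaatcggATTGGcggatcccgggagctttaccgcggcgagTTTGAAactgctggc
Cdc20: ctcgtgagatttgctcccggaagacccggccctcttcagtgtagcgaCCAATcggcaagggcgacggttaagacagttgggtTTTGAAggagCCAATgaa
Top2a: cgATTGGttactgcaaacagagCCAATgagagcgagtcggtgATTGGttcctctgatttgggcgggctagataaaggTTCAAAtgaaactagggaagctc

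**Figure D1:**
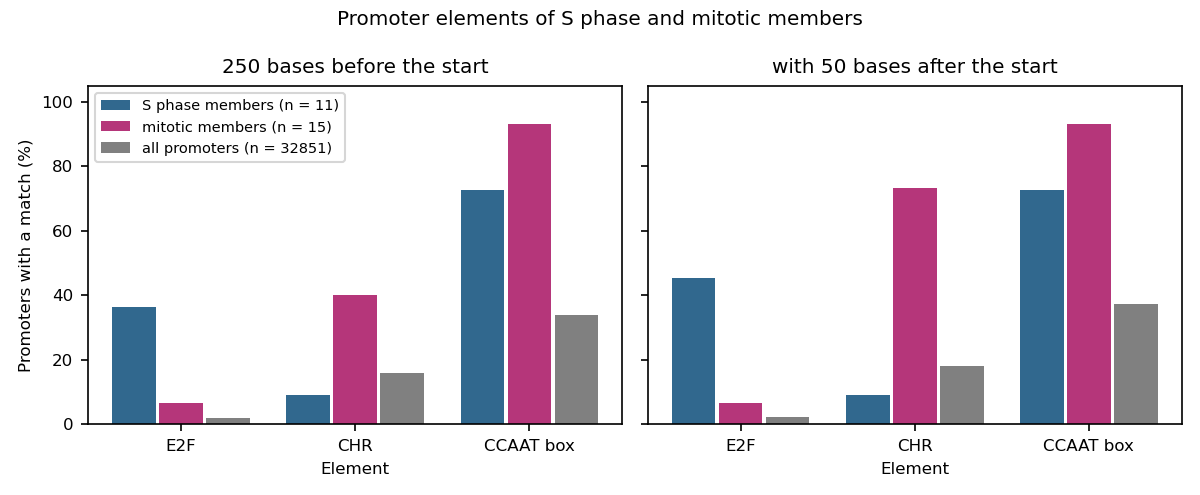
Share (%) with at least 1 match to each element on either strand, for 11 S phase members, 15 mitotic members and all 32851 promoters. Members are counted by gene and the background by promoter. The left panel covers 250 bases before the start and the right panel adds the 50 bases after it. E2F matches are more frequent among S phase members and CHR matches among mitotic members.

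The FPKM of all genes summed to between 426966 and 637902 per library, highest in WT 3. Low FPKM values fell in steps, from which about 13500000 (KO 2) to 19400000 (WT 3) fragments per library were estimated. At that depth the members rested on an estimated 10 fragments (Bub1 in WT 3 and KO 1) to 1102 (Pcna in WT 3). Epithelial RNA set WT 1 apart from the other WT libraries: Epcam reached 14.2 FPKM there and only 0.199 and 0.191 FPKM in the other WT libraries, against 16.4 to 34.3 FPKM in the libraries labelled KO. WT 3 differed by transcript length, with a median log2 deviation of 0.56 for tested genes with transcripts under 1000 nt and of -0.24 for those of 7000 nt or more.

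The members spanned a wide range of levels. Among S phase members the mean over the 6 libraries ran from 0.703 FPKM (Cdc6) to 30.2 FPKM (Pcna), with a median of 3.07 FPKM. Among mitotic members it ran from 0.253 FPKM (Bub1) to 9.64 FPKM (Stmn1), with a median of 1.07 FPKM. Genes whose mean reached 1 FPKM were tested, which kept 12 of 13 S phase and 12 of 20 mitotic members. Cdc6, Ccnb1, Bub1, Aurka, Plk1, Cenpe, Cenpf, Kif11 and Tpx2 fell below that mean and are described from a fit without the filter. In this tissue the replication genes stood mostly above the mitotic ones per length of transcript, with 5 S phase and 2 mitotic members at a mean over 5 FPKM.

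**Figure D2:**
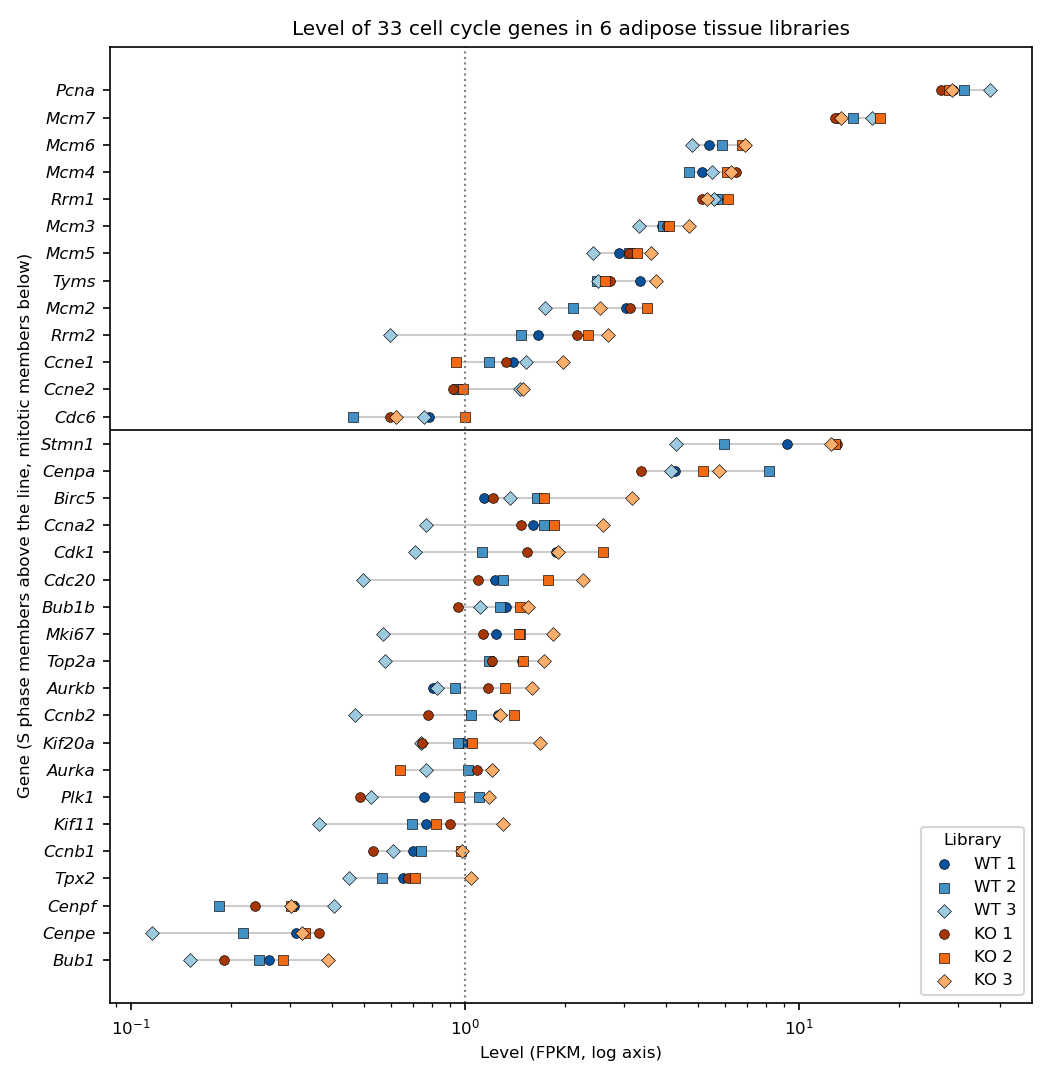
Level of each of the 33 genes in FPKM (log axis) in the 6 libraries, with 13 S phase members above the line and 20 mitotic members below, each ordered by mean. Blue symbols are WT and orange symbols the libraries labelled KO, and the dotted line marks 1 FPKM. WT 3 (pale blue diamonds) is the lowest library in 12 of 20 mitotic members and KO 3 (pale orange diamonds) the highest in 13 of 20.

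No member passed the adjusted threshold between the groups (limma, Benjamini-Hochberg over 12539 genes; 0 of 24 tested members against 0% of all genes tested). At an unadjusted p under 0.05 there were 4 of 24 tested members, Stmn1, Mcm6, Rrm2 and Mcm4, all with higher values in the libraries labelled KO. Of all genes tested 13.6% had such a p, 9.13% with higher and 4.43% with lower values, so the members' share is near the background. In 6 tested members every library labelled KO lay above every WT library, against 10.1% of all genes tested. In 1, Pcna, every one lay below, against 12.2%. The difference was positive in 20 of 24 tested members, against 40.8% of all genes tested, but in 11 of 24 with quantile normalization, which gives every library the same distribution of values. In the quantile scale 5070 of 12539 genes were positive. The members' difference was positive in 22 of 24 with median-ratio scaling, which aligns the libraries by the median ratio over genes. In that scale 6097 of 12539 genes were positive. A correction for transcript length and GC also gave 22 of 24, with 6205 of 12539 genes positive. With sample weights, which give libraries far from their group less weight, 15 of 24 were positive and Mcm6 passed (limma adjusted p = 0.048, between 0.048 and 0.762 in the alternatives), while 7.74% of all genes tested passed. In the weighted fit 5778 of 12539 genes were positive. Over all 33 members without the filter the difference was positive in 27, while of 21829 genes 8279 were positive and 9560 negative. In that fit 9 members had groups apart with higher values in the libraries labelled KO, against 8.79% of all genes, and 1 with lower values, against 7.71%. None of the 33 passed in that fit, in which 0.00458% of all genes did, and 5 had an unadjusted p under 0.05, against 11.2%. In bulk tissue fewer cells of a type and less RNA per cell cannot be told apart, which holds for every value here.

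Among the 6 MCM helicase genes, 5 had higher values in the libraries labelled KO, from 0.16 to 0.31 on the log2(FPKM + 1) scale, and Mcm7 differed by -0.02. Without WT 3 the differences of Mcm2, Mcm3 and Mcm5 were smaller, at 0.19, 0.10 and 0.11, and Mcm7 turned to 0.06. With quantile normalization Mcm2 was at 0.09, Mcm3 at 0.006, Mcm5 turned to -0.01 and Mcm7 to 0.01, and with median-ratio scaling Mcm7 turned to 0.025. Mcm6 had 5.37, 5.87 and 4.79 FPKM in the WT libraries and 6.92, 6.78 and 6.90 FPKM in those labelled KO. The groups did not overlap, and the 3 libraries labelled KO were almost level. The log2 difference, 0.31, had a standard error of 0.11 (limma adjusted p = 0.286), and the means stood at a ratio of 1.29. Mcm6 spans 128331590 to 128359664 of chromosome 1 in GRCm38, on the minus strand.

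Mcm4 had 5.13, 4.69 and 5.50 FPKM in WT and 6.46, 6.08 and 6.25 FPKM in the libraries labelled KO. Its groups did not overlap either, with a log2 difference of 0.25 and a standard error of 0.11 (limma adjusted p = 0.367). Mcm3 had 3.90, 3.93 and 3.33 FPKM in WT against 4.03, 4.09 and 4.70 FPKM, so that its groups were separated by a narrow margin. In Mcm2 and Mcm5 the groups overlapped. Mcm2 had 3.04, 2.11 and 1.74 FPKM in WT against 3.12, 3.51 and 2.55 FPKM, and WT 1 lay above KO 3. Mcm5 had 2.89, 3.11 and 2.42 FPKM in WT against 3.10, 3.28 and 3.60 FPKM, and WT 2 lay just above KO 1. Mcm7 was the most abundant of the 6, with 13.1, 14.5 and 16.6 FPKM in WT and 12.8, 17.5 and 13.4 FPKM in the libraries labelled KO. Of its exonic bases 7.3% are shared with Ap4m1 on the opposite strand, and whether counting used strand is not given in the sources used here.

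The genes of nucleotide supply gave unlike values. Rrm2, the subunit of ribonucleotide reductase whose level rises in S phase, had the widest difference of the S phase members. It had 1.65, 1.48 and 0.598 FPKM in the WT libraries and 2.17, 2.34 and 2.69 FPKM in those labelled KO. The groups did not overlap, and WT 3 was far below the other 5 libraries. The log2 difference, 0.63, had a standard error of 0.22 (limma adjusted p = 0.294), the ratio of means was 1.93, and without WT 3 the difference was 0.40. Rrm2 spans 24708241 to 24714146 of chromosome 12 in GRCm38, on the plus strand. Rrm1, the large subunit of the same enzyme, had 5.69, 5.68 and 5.59 FPKM in WT against 5.14, 6.13 and 5.30 FPKM, a log2 difference of -0.03. Tyms, the thymidylate synthase, had 3.34, 2.49 and 2.503 FPKM in WT against 2.72, 2.62 and 3.74 FPKM. In both genes the groups overlapped.

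Pcna, the sliding clamp of replication and repair, was the most abundant member and the one whose libraries labelled KO all lay below WT. It had 28.8, 31.1 and 37.4 FPKM in WT and 26.7, 28.1 and 28.7 FPKM in those labelled KO. The margin between WT 1 and KO 3 was narrow. Pcna spans 132249162 to 132253314 of chromosome 2 in GRCm38, on the minus strand. The log2 difference, -0.21, had a standard error of 0.12 (limma adjusted p = 0.504), and it was -0.10 without WT 3. Its transcript of 1518 nt was the shortest of the S phase members, in the length band in which WT 3 had a median deviation of 0.31. After a length and GC correction the difference of Pcna was -0.002.

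The E cyclins, which activate CDK2 at the entry to S phase, had nearly equal group means in the scale as deposited, but with quantile normalization Ccne1 differed by -0.35 and Ccne2 by -0.32. Ccne1 had 1.40, 1.18 and 1.53 FPKM in WT and 1.33, 0.939 and 1.97 FPKM in the libraries labelled KO. Ccne2 had 0.952, 0.945 and 1.47 FPKM in WT and 0.923, 0.988 and 1.498 FPKM in the libraries labelled KO. In the scale as deposited both log2 differences were 0.01, with standard errors of 0.20 and 0.19, and in both the highest library was KO 3. Ccne2 shares 17.4% of its exonic bases with Ints8 on the opposite strand, which makes its counts uncertain in the same way. Cdc6, the MCM loader, was below the filter, between 0.463 and 0.998 FPKM, and its groups overlapped.

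**Figure D3:**
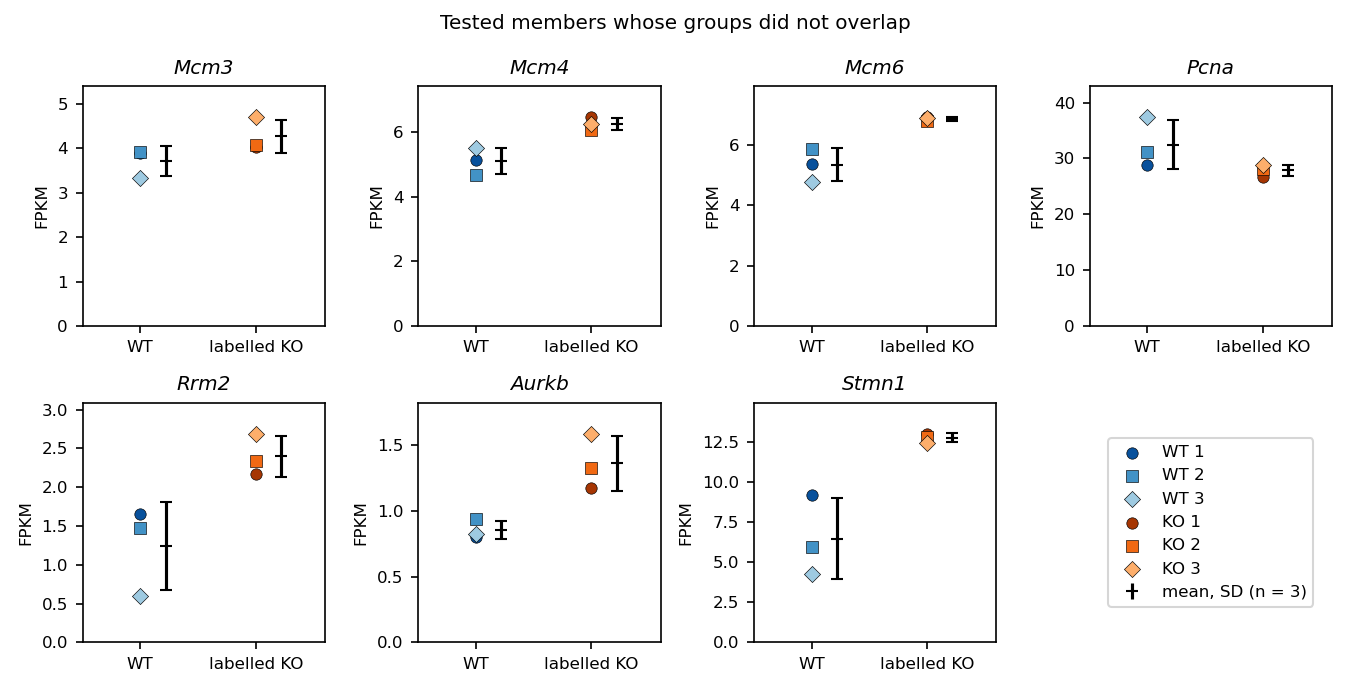
Level (FPKM, axes from 0) of the 7 tested members whose groups did not overlap, by group, with the mean and SD of 3 libraries beside the points. In Mcm3, Mcm4, Mcm6, Rrm2, Aurkb and Stmn1 the libraries labelled KO lie higher (Aurkb with a log2 difference of -0.02 under quantile normalization), and in Pcna they lie lower.

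Among the mitotic members, Stmn1 stood out. It encodes stathmin, which destabilizes microtubules and is also made in cells that do not divide, so it is not a marker of mitosis alone. It had 9.22, 5.96 and 4.28 FPKM in the WT libraries and 13.0, 12.85 and 12.5 FPKM in those labelled KO. The 3 libraries labelled KO were nearly level and all above WT, and WT 1 was the highest WT library. The log2 difference, 0.93, had a standard error of 0.23 (limma adjusted p = 0.223), and the means stood at a ratio of 1.97. Without WT 1 it was 1.19 and passed (limma adjusted p = 0.0164, between 0.0164 and 0.716 in the alternatives), in a fit where 3.84% of all genes tested passed. The difference of Stmn1 was smaller without WT 3, at 0.71, and with sample weights, at 0.53, and did not pass in either. WT 1 also stood between the other WT libraries and those labelled KO in Epcam, and the part of epithelial RNA in Stmn1 was not tested. Stmn1 spans 134468320 to 134473843 of chromosome 4 in GRCm38, on the plus strand.

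The cyclin and kinase core of mitosis gave values that overlapped between the groups. Cdk1, the mitotic kinase, had 1.88, 1.12 and 0.708 FPKM in the WT libraries and 1.53, 2.59 and 1.91 FPKM in those labelled KO. Cdk1 differed by 0.45 (log2) with a standard error of 0.24 (limma adjusted p = 0.469), and WT 1 lay above KO 1. The difference of Cdk1 was 0.27 without WT 3, 0.09 with quantile normalization and 0.05 with sample weights. Ccna2, the A cyclin of S phase and G2, had 1.59, 1.73 and 0.767 FPKM in WT against 1.48, 1.85 and 2.59 FPKM. Ccnb2, a B cyclin, had 1.26, 1.04 and 0.468 FPKM in WT against 0.778, 1.41 and 1.27 FPKM. Without WT 3 Ccna2 differed by 0.14 in place of 0.34, and Ccnb2 by -0.01 in place of 0.17. In each of these 3 genes WT 3 was the lowest library, and KO 1 lay among WT 1 and WT 2 or below them. Ccna2 shares 12.5% of its exonic bases with Exosc9 on the opposite strand. Ccnb1, the other B cyclin, was below the filter, between 0.531 and 0.979 FPKM.

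Mki67 and Top2a, the usual markers of cycling cells, also had their lowest value in WT 3. Mki67, which coats mitotic chromosomes, had 1.24, 1.46 and 0.568 FPKM in the WT libraries and 1.13, 1.45 and 1.83 FPKM in those labelled KO. Mki67 differed by 0.26 (log2) with a standard error of 0.23 (limma adjusted p = 0.628), and 0.06 without WT 3. Top2a, the topoisomerase that untangles sister chromatids, had 1.48, 1.18 and 0.575 FPKM in WT against 1.21, 1.49 and 1.73 FPKM. Its difference was 0.27, and 0.08 without WT 3. In both genes WT 3 lay apart from the other WT libraries, which overlapped with the libraries labelled KO. Quantile normalization turned the differences of Mki67 and Top2a to -0.13 and -0.14.

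Genes of spindle control and chromosome segregation gave mixed values. Cdc20, the activator of the APC/C, had 1.23, 1.30 and 0.494 FPKM in WT against 1.10, 1.77 and 2.26 FPKM, a log2 difference of 0.44 (limma adjusted p = 0.491). For Cdc20 it was 0.24 without WT 3, 0.07 with quantile normalization and 0.13 with sample weights. Aurkb, the kinase that corrects chromosome attachment, was the other tested mitotic member whose groups did not overlap. It had 0.804, 0.935 and 0.826 FPKM in WT against 1.17, 1.32 and 1.58 FPKM, a log2 difference of 0.34 with a standard error of 0.16 (limma adjusted p = 0.406), which quantile normalization turned to -0.02. Birc5, which encodes survivin of the same complex, had 1.14, 1.64 and 1.36 FPKM in WT against 1.21, 1.73 and 3.17 FPKM. Its difference of 0.31 was 0.05 without KO 3, the library that lay far above the others. Bub1b, of the spindle checkpoint, had 1.33, 1.28 and 1.11 FPKM in WT against 0.957, 1.47 and 1.55 FPKM, and Kif20a, a kinesin of cytokinesis, had 0.988, 0.955 and 0.740 FPKM in WT against 0.744, 1.05 and 1.68 FPKM. Both overlapped. Without WT 3 Bub1b differed by 0.003 in place of 0.05, and Kif20a by 0.11 in place of 0.17, and 29.3% of the exonic bases of Kif20a are shared with Cdc23 on the opposite strand. Cenpa, the histone that marks centromeres, was the 1 tested mitotic member with a negative difference, -0.15, and it was 0.12 without WT 2 and -0.29 without WT 3. It had 4.27, 8.17 and 4.13 FPKM in WT against 3.37, 5.17 and 5.75 FPKM.

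Below the filter, Kif11, a spindle motor, had 0.767, 0.693 and 0.367 FPKM in WT against 0.900, 0.818 and 1.31 FPKM. Tpx2, a spindle assembly factor, had 0.654, 0.563 and 0.450 FPKM in WT against 0.675, 0.708 and 1.04 FPKM. Cenpe, a centromere motor, had 0.312, 0.217 and 0.116 FPKM in WT against 0.365, 0.332 and 0.325 FPKM. In these 3 the groups did not overlap, on an estimated 18 to 112 fragments per library. Aurka, Plk1, Bub1 and Cenpf overlapped, with log2 differences from -0.02 to 0.08, and ran over all libraries from 0.641 to 1.21, 0.484 to 1.18, 0.15 to 0.390 and 0.184 to 0.406 FPKM.

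**Figure D4:**
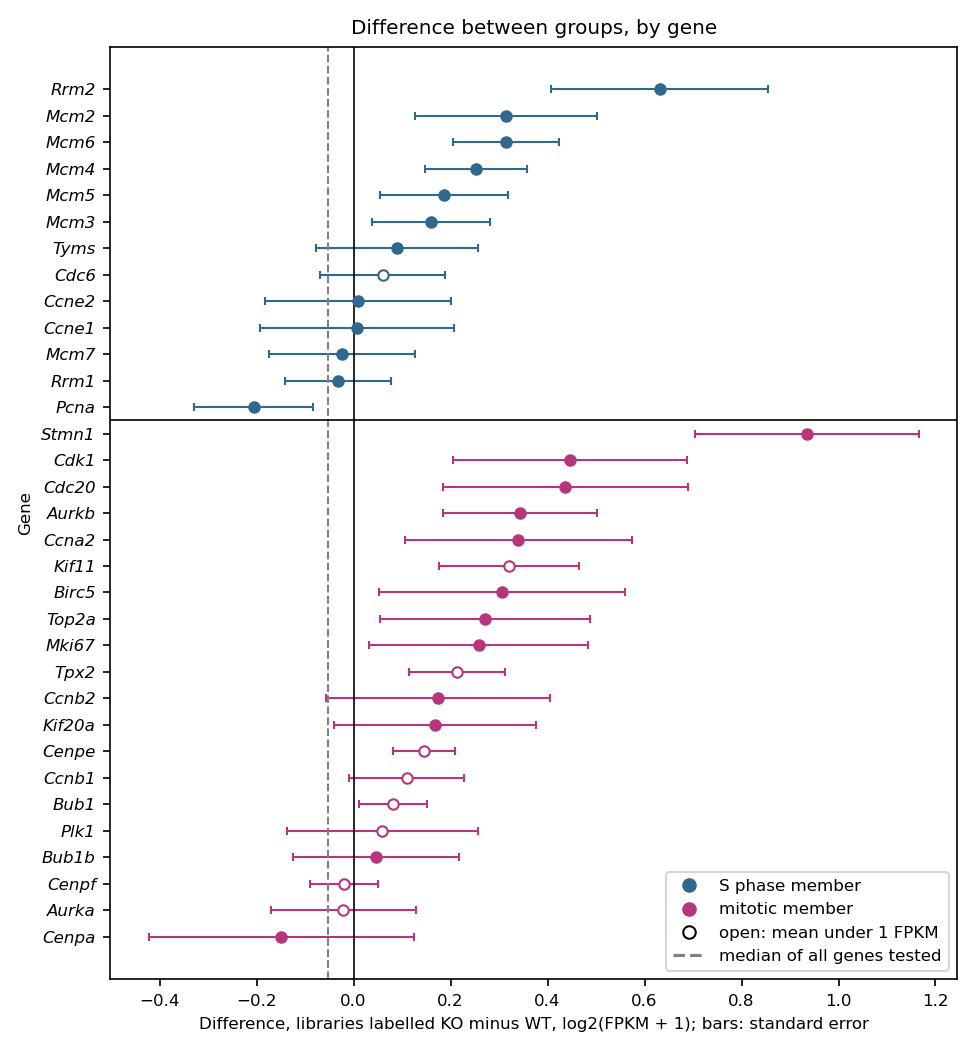
Difference between the libraries labelled KO and WT on the log2(FPKM + 1) scale, with its standard error, for 13 S phase members (above the line) and 20 mitotic members. Open circles are the 9 members with a mean under 1 FPKM, fitted without the filter, and the dashed line is the median of all genes tested, -0.05. Most members lie to the right of it in this scale, while quantile normalization moves the tested medians to -0.003 (S phase) and -0.071 (mitotic).

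The S phase and mitotic members were set side by side by library, as a description with no test. The median log2 difference was 0.12 over the 12 tested S phase members and 0.29 over the 12 tested mitotic members, against -0.05 over all genes tested. With quantile normalization these medians were -0.003 and -0.071, against -0.055 over all genes tested. Averaged over the tested mitotic members, the deviation from each gene's mean was -0.02, -0.01 and -0.42 in WT 1, WT 2 and WT 3. It was -0.09, 0.19 and 0.34 in KO 1, KO 2 and KO 3. The groups overlapped, since KO 1 lay below WT 1 and WT 2, and the extremes were WT 3 and KO 3. Over the tested S phase members it was -0.03, -0.08 and -0.11 in WT and 0.01, 0.06 and 0.14 in the libraries labelled KO, a narrower range in which the groups did not overlap, although they did with quantile normalization. The S phase mean minus the mitotic mean was -0.01, -0.07 and 0.31 in the WT libraries and 0.10, -0.13 and -0.20 in those labelled KO. Those values overlapped between the groups, and WT 3 was the highest. Over the groups, the S phase mean difference minus the mitotic one was -0.156, but -0.038 without WT 3, -0.003 with quantile normalization and -0.001 with sample weights. It was -0.16 with the length and GC correction and -0.146 with median-ratio scaling. With 0.1 FPKM in place of 1 added before the log it was wider, at -0.268.

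Single genes showed the same libraries at the ends. WT 3 was the lowest library in 8 of 12 tested mitotic members and in 5 of 12 S phase members, against 27.02% of all genes tested. KO 3 was the highest in 8 of 12 mitotic and 6 of 12 S phase members, against 7.17% of all genes tested. Over all 20 mitotic members WT 3 was the lowest in 12 and KO 3 the highest in 13. Without WT 3 the mitotic median was 0.12, and without KO 3 it was 0.17. For S phase the median was 0.11 without WT 3, 0.07 without KO 3 and 0.19 without WT 1. After a length and GC correction WT 3 deviated by -0.56 in the mitotic and -0.24 in the S phase members. With quantile normalization WT 3 deviated by -0.04 and 0.05, and KO 1, at -0.32, was the lowest library of the mitotic members.

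**Figure D5:**
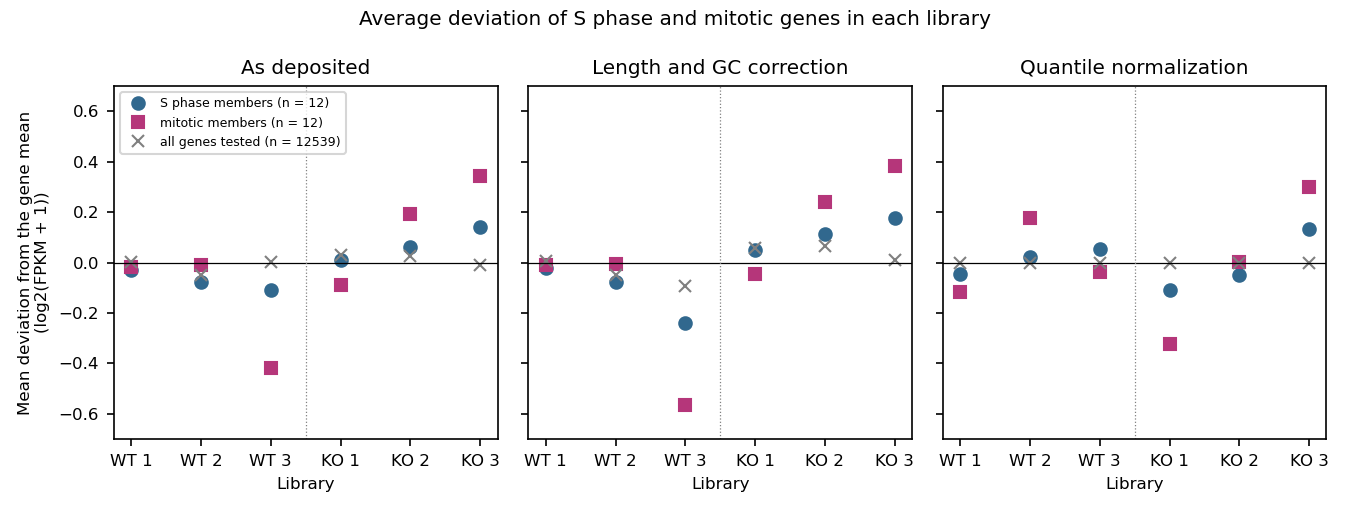
Mean deviation from the gene's mean over 6 libraries (log2(FPKM + 1)) for 12 S phase members, 12 mitotic members and all 12539 genes tested, by library and scale. As deposited, the mitotic members run from -0.42 in WT 3 to 0.34 in KO 3 and the S phase members from -0.11 to 0.14. With quantile normalization WT 3 is no longer low and KO 1 is the lowest for both.

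Other genes of the same processes, from lists fixed by name, were counted in the same way. Of 43 tested genes of DNA replication (origin recognition, GINS, polymerases, clamp loader), 20 had positive and 23 negative differences, with a median of -0.02, and with quantile normalization 5 and 38. Over all genes tested the quantile scale gave 5070 positive and 7469 negative. With median-ratio scaling 22 were positive and 21 negative. WT 3 was the highest library in 21 of the 43 genes, or 48.84%, against 40.33% of all genes tested. At an unadjusted p under 0.05 there were 0 higher and 2 lower, and 0 passed the adjusted threshold. Pole4, an accessory subunit of DNA polymerase epsilon, had 35.2 ± 7.44 FPKM (SD, n = 3) in WT and 24.97 ± 1.75 FPKM in the libraries labelled KO, and Orc3, of the origin recognition complex, had 18.5 ± 1.93 against 15.0 ± 0.240 FPKM. Gins1, of the replicative helicase, had 3.18 ± 1.35 against 1.78 ± 0.161 FPKM. In these 3 genes, chosen for the smallest p, every library labelled KO lay below WT. In the whole list the groups did not overlap in 4 genes with higher and 6 with lower values, against 10.1% and 12.2% of all genes tested. Without WT 3 the difference of Pole4 was -0.30 in place of -0.46, and that of Gins1 -0.29 in place of -0.54.

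Of 24 tested genes of mitosis among 52 listed, 17 had positive differences, with a median of 0.13, against 6 with quantile normalization and 18 with median-ratio scaling. Of all 12539 genes tested, 5070 were positive with quantile normalization and 6097 with median-ratio scaling. In the scale as deposited 0 higher and 2 lower had an unadjusted p under 0.05. Incenp, the scaffold that holds Aurkb and Birc5 at centromeres, had 4.76, 4.92 and 5.54 FPKM in WT against 1.98, 3.84 and 2.78 FPKM. That was the opposite direction to both partners as deposited, but with quantile normalization Aurkb differed by -0.016 and Birc5 by 0.055. Incenp differed by -0.68 (log2) with a standard error of 0.19 (limma adjusted p = 0.223). Anln, of the cytokinetic ring, had 5.01, 7.24 and 6.79 FPKM in WT against 3.36, 3.70 and 5.21 FPKM. Tacc3, a spindle microtubule protein, had 2.28 ± 0.252 FPKM (SD, n = 3) against 3.10 ± 0.381 FPKM. In the 24 tested genes WT 3 was the lowest library in 9, or 37.5%, against 27.02% of all genes tested. WT 3 was the highest in 5, or 20.83%, against 40.33%, and KO 3 in 9, or 37.5%, against 7.17%. Over all 52 genes, most of them below the filter, WT 3 was the lowest library in 30 and KO 3 the highest in 25. The share over all genes without the filter was not computed.

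Of 32 tested genes of G1 control, 15 had positive and 17 negative differences, with a median of -0.01. With quantile normalization the counts were also 15 and 17, while 23 were positive with median-ratio scaling. An unadjusted p under 0.05 was found for 2 higher and 1 lower. The D cyclins, which start the cycle by activating CDK4 and CDK6, gave differences of opposite sign. Ccnd1 had 18.9, 12.9 and 5.49 FPKM in the WT libraries and 30.7, 30.6 and 24.1 FPKM in those labelled KO, a log2 difference of 1.27 with a standard error of 0.38 (limma adjusted p = 0.229). WT 3 was the lowest library of Ccnd1, and the difference was 0.82 without it and 0.73 with sample weights. Ccnd2 had 64.7, 54.2 and 73.7 FPKM in WT against 50.5, 47.8 and 49.1 FPKM, a difference of -0.37 (limma adjusted p = 0.306). In both genes the groups did not overlap. Cdk6 had 3.66, 2.98 and 1.80 FPKM in WT against 5.49, 6.04 and 3.32 FPKM, where KO 3 lay below WT 1. None of the 9 genes named from these 3 lists passed the adjusted threshold (limma), while with sample weights Pole4, Orc3 and Ccnd2 did.

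Markers of several cell types also differed in level between the libraries. The 11 mature adipocyte markers summed to 52810 to 94750 FPKM in WT, the highest in WT 3, and to 38020 to 46480 FPKM in the libraries labelled KO, with 0 higher and 1 lower at an unadjusted p under 0.05. All 11 were tested, and none was near 0 in any library, so the defining markers of the labelled tissue were present. The 7 endothelial markers summed to 138 FPKM in WT 3 and to 246 to 316 FPKM in the other 5 libraries, with 0 of 7 at such a p. The 12 macrophage markers summed to 1008 to 1460 FPKM in WT and to 954, 928 and 1287 FPKM in KO 1, KO 2 and KO 3, where KO 3 was the highest of its group, with 0 higher and 3 lower. The 9 adipose progenitor markers summed to 1152, 1539 and 1577 FPKM in WT, where WT 3 was the highest of all libraries. They summed to 1165 to 1219 FPKM in the libraries labelled KO, with 0 of 9 at such a p. The part of these cell types in the values of the members was not tested.

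Epithelial, ciliated and germ cell markers were also present. The 12 epithelial markers summed to 86.8, 17.4 and 9.23 FPKM in the WT libraries and to 101 to 204 FPKM in the libraries labelled KO, with 9 of 10 tested higher and 0 lower at an unadjusted p under 0.05. The 24 multiciliated cell markers in the table summed to 44.3 to 111 FPKM in WT and 148 to 256 FPKM in the libraries labelled KO, with 20 of 20 tested higher, and Cdc20b stayed under 0.1 FPKM in every library. Foxj1, which switches on motile cilia genes, had 13.9, 0.034 and 0 FPKM in WT and 44.2, 43.2 and 20.0 FPKM in the libraries labelled KO. The 14 germ cell markers summed to 132 FPKM in WT 1 and 101 FPKM in KO 2, and to between 3.43 and 15.3 FPKM elsewhere, with Stra8 at 0 and Sycp1 under 0.1 FPKM in every library and 0 higher and 1 lower. KO 2 was the highest library in 2 of the 12 tested mitotic members, against 13.69% of all genes tested. WT 1 was the highest in 0 of the 12, against 7.81%. T cell, B cell, neutrophil and erythroid sums were 5.18 to 6.59, 18.4 to 31.6, 26.5 to 48.9 and 1300 to 3533 FPKM in WT. In the libraries labelled KO they were 2.99 to 5.61, 7.06 to 16.3, 8.48 to 15.2 and 505 to 1372 FPKM. The lower counts at an unadjusted p under 0.05 were 0 of 3, 3 of 3, 2 of 5 and 5 of 5 tested, with 0 higher in each, and Ly6g was at 0 in every library. The 7 mesothelial markers summed to 51.6 to 111 FPKM in WT and 66.5 to 112 FPKM in the libraries labelled KO, with 1 higher and 0 lower. The part of these cells in the values of Stmn1, Rrm2 or any other member was not tested.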

How the data were processed

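RNA was sequenced from 6 epididymal fat libraries, 3 labelled KO and 3 WT. Per the labels' protocols, TRIzol was used for extraction and a TruSeq stranded mRNA kit for the libraries. The build mm10 and the tools STAR 2.5.4, Cufflinks and Cuffdiff 2.2.1 are named, per the submitters' processing notes. For annotation, filters, strand setting and library scaling the answer is not given in the sources used here. The authors deposited 1 column of values per library, read as FPKM because the tools are named and the values are not whole. No header names the unit.

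Of 21853 rows, 24 repeated a symbol and the one with the highest mean was kept. A mean of 1 FPKM or more was required, and 12539 genes were tested as log2(FPKM + 1), which understates changes of low genes, with limma 3.58.1 in R 4.3.3, with a mean-variance trend. The threshold was an adjusted p under 0.05. The members, lists and tests were chosen with earlier results of these data known. All 33 members are named, with Zfp251 and the 3 smallest p of each other cell cycle list. The alternatives kept the tested genes, except that without the filter all 21829 genes were fitted. They were a pseudocount of 0.1, no filter, median-ratio scaling, quantile normalization, sample weights, a length and GC correction (lowess, span 0.3), the replicate block and each library left out. The fit was tested on simulated data. GENCODE vM21 (GRCm38, the assembly of mm10) gave gene positions and transcript lengths. Fragment numbers were estimated from the value of 1 fragment, the commonest low step of FPKM times length in genes with 1 transcript. That step held between 9.18% and 15.4% of the low genes within 0.005, so the numbers are approximate and no intervals are given.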

Additional observations from a re-analysis of the deposited data

How the results depend on the processing

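The counts of called genes and members depended on the setting. Out of 12539 genes 0 passed, against 1 with no filter on low values, 970 with sample weights and 0 to 482 when 1 library was dropped (482 without WT 1). Among the members 0 passed, against 1 with sample weights (Mcm6, log2 difference 0.299, limma adjusted p = 0.048, between 0.048 and 0.762 in the alternatives) and 0 to 1 when 1 library was dropped. Zfp251 stayed positive, from 0.646 to 0.776 with a library left out, and passed without WT 1 (0.776, limma adjusted p = 0.0409) and with sample weights (0.64, limma adjusted p = 0.0367), with adjusted p between 0.0367 and 0.716 in the alternatives. The S phase members with an unadjusted p under 0.05 were 3, against 0 with quantile normalization, 1 with the replicate block and 0 to 3 when 1 library was dropped, 0 of them without KO 1, without KO 2 or without KO 3. The mitotic ones were 1, against 2 with no filter on low values, 2 with sample weights, 2 with the length and GC correction and 1 to 2 when 1 library was dropped. The median difference of S phase members was -0.003 with quantile normalization and 0.065 to 0.191 when 1 library was dropped, and that of mitotic members -0.071 and between 0.125 and 0.381. It was 0.048 for mitotic members with sample weights. The S phase mean minus the mitotic mean, -0.156, ran from -0.244 to -0.038 with a library left out and was -0.003 with quantile normalization and -0.001 with sample weights. With the pseudocount of 0.1 it was -0.268, with the length and GC correction -0.16 and with median-ratio scaling -0.146. CHR matches among mitotic promoters were 11 in the longer window. The causes were not tested.

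Of 312 recomputed values of the 24 tested members 38 reversed, and 11 members never did. Quantile normalization gave -0.013 for Mcm5, 0.014 for Mcm7, -0.122 for Tyms, -0.346 for Ccne1, -0.318 for Ccne2, -0.126 for Mki67, -0.137 for Top2a, -0.266 for Ccnb2, -0.317 for Bub1b, -0.016 for Aurkb and -0.176 for Kif20a. Sample weights gave 0.071 for Mcm7, -0.141 for Tyms, -0.055 for Ccne1, -0.038 for Top2a, -0.138 for Ccnb2, -0.096 for Bub1b and -0.028 for Kif20a. Median-ratio scaling gave 0.025 for Mcm7 and 0.012 for Rrm1, the length and GC correction 0.019 and 0.007 in the same order, and the pseudocount of 0.1 gave -0.007 for Ccne1. With a library left out Mcm7 ran from -0.153 to 0.059, Rrm1 from -0.098 to 0.01, Tyms from -0.033 to 0.193, Ccne1 from -0.155 to 0.154, Ccne2 from -0.108 to 0.123, Ccnb2 from -0.008 to 0.307, Bub1b from -0.026 to 0.164 and Cenpa from -0.294 to 0.124.

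Whether replicate numbers pair the libraries could not be told from the values. The deviations of same-numbered libraries correlated at 0.228, -0.2 and 0.22 across genes, and those of different-numbered ones at -0.477 to 0.426. With the replicate block 0 genes and 0 members passed. Depth limits the mitotic members most, of which Bub1 rests on an estimated 10 to 24 fragments.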

Other observations

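With no filter on low values 1 gene of 21829 passed limma's adjusted threshold (0.00458% of all genes), and it acts on replicating and broken DNA. Exo1, an exonuclease of mismatch repair and of DNA end resection, was noticed after its values were seen. It had 0.154, 0.155 and 0.147 FPKM in the WT libraries and 0.386, 0.397 and 0.395 FPKM in those labelled KO. The groups were far apart for their spread and differed by 0.27 on the log2 scale (limma adjusted p = 0.00247). The values rest on an estimated 18 to 55 fragments per library. The 3 WT values varied by 2.87% of their mean, while the counting error of about 21.2 fragments alone is 21.7%, so the spread that the test used was smaller than counting would give. The gene had a mean under 1 FPKM and was outside the genes tested in the report.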
